A study of Mus musculus with 8 samples.

Results

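Transcript levels of 10 Hippo pathway genes were compared between 4 BMPR2 DELX and 4 ROSA mouse libraries. The genes are the angiomotins Amot, Amotl1 and Amotl2, the kinases Lats1 and Lats2, the co-activators Yap1 and Wwtr1, the DNA-binding partner Tead1 and the target genes Ccn1 and Ccn2. They were taken by symbol from 49671 counted genes, and all 10 were found and passed the filter on low counts. The list was drawn up with the measured difference between BMPR2 DELX and ROSA known, so its genes count as selected on those log2 fold changes. The differences are therefore given as a description and without p-values.

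The libraries hold polyadenylated RNA of samples labelled as adipocytes, from mice carrying the BMPR2 DELX mutation and from ROSA mice, which serve as the control. Age, sex, strain, fat depot, the construct behind each name, any promoter or recombinase, and whether each library came from its own animal are not given in the sources used here. The p-values therefore measure the spread between these libraries, which may be technical. Bmpr2, the type II bone morphogenetic protein receptor named in the mutant label, was at 211 ± 17.6 CPM (read counts scaled to the size of the library) in the mutant libraries, and at 197 ± 17.0 in ROSA (SD, n = 4 each). A count over the whole gene does not test which allele was read.

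Assigned reads ran from 28799445 to 43684785 per library. Levels are CPM scaled by the trimmed mean of M values (TMM), and a gene was called at an adjusted p below 0.05 in edgeR's quasi-likelihood test over 14887 tested genes, with Benjamini-Hochberg adjustment. Of these, 589 were called higher and 766 lower in BMPR2 DELX, a share of 43.5% higher among the calls, which was 54.8% with upper-quartile scaling. Of 10 adipocyte markers, 8 stayed under 1 CPM in every library, and Adipoq, the fat cell hormone adiponectin, reached at most 6 counts. Fabp4 was at 33.8 to 71.7 CPM and Lipe at 3.59 to 6.80 CPM over the libraries. The adipocyte markers summed to 37.8 to 76.6 CPM, nearly all of it Fabp4. Summed fibroblast markers ran from 8803 to 13621 CPM and mural cell markers from 10002 to 14455 CPM. Col1a1 and Col1a2 made up most of the fibroblast sum, in which Lum reached at most 1.32 CPM. Acta2 and Tagln made up most of the mural sum. Each of these lists had 1 gene called lower and 0 called higher, with median log2 fold changes of 0.07 (fibroblast) and -0.25 (mural). Summed endothelial markers were lowest in BMPR2 DELX 3 at 764 CPM and in ROSA 3 at 1144 CPM, and ran from 1412 to 2459 CPM in the other libraries. Summed macrophage markers were 39.3 to 70.1 CPM in BMPR2 DELX, against 22.9 to 36.1 CPM in ROSA, with 6 of the 10 genes under 1 CPM throughout. Summed epithelial markers were 23.5 to 57.4 CPM in BMPR2 DELX, against 30.1 to 47.3 CPM in ROSA. Immediate early genes respond within minutes to handling or growth factors. They summed to 1880 CPM in ROSA 1 and 2244 CPM in ROSA 2. In ROSA 3 and 4 they summed to 930 to 943 CPM, and in BMPR2 DELX to 793 to 866 CPM. Of 18 tested immediate early genes, 4 were called lower and 0 higher, with a median log2 fold change of -1.10.

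The Hippo pathway is a kinase cascade that restrains growth. The kinases Stk3 and Stk4 activate Lats1 and Lats2, which phosphorylate the co-activators YAP (Yap1) and TAZ (Wwtr1) and keep them in the cytoplasm. Unphosphorylated YAP and TAZ enter the nucleus, bind TEAD proteins and raise transcription of genes such as Ccn1 and Ccn2. Angiomotins are scaffold proteins at cell junctions and actin fibres that bind YAP directly and also activate the LATS kinases, while Amotl2 and Lats2 are themselves YAP targets. In stromal cells and fat cell precursors YAP and TAZ respond to cell spreading and matrix stiffness. Transcript counts do not measure phosphorylation or the location of YAP and TAZ.

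Promoter sequences are shown because TEAD proteins bind the letters GGAATG, through which YAP and TAZ reach their targets. RefSeq promoters (GRCm38.p6) covered 8 of the 10 genes, with 10 entries, and Tead1 and Ccn2 were without one. The 250 bases before each start were searched for GGAATG on both strands, where the opposite strand reads CATTCC. A match was found in Amotl2, Yap1, Wwtr1 (both entries) and Ccn1, and in 12.6% of 32851 promoters of all genes. Below, the 3 genes with a match that stand at 3 levels of the pathway (an angiomotin, a co-activator and a target) are shown. Beside them is Amot, the gene with the widest difference, which has none in the window searched. The Amot window lies inside the annotated gene, whose 5′ end at position 145505181 was not searched. The windows of Amotl1, Amotl2 and Lats2 also lie inside their annotated genes. Capitals mark the match, and each window is printed 5′ to 3′ on the gene's own strand.
Amotl2 (chr9:102717554-102717803, plus strand): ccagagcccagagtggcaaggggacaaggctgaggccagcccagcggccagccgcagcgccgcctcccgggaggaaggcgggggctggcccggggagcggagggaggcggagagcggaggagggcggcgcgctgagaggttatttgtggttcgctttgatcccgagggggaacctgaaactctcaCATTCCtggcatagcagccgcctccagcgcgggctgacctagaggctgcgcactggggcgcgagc
Yap1 (chr9:8004597-8004846, minus strand): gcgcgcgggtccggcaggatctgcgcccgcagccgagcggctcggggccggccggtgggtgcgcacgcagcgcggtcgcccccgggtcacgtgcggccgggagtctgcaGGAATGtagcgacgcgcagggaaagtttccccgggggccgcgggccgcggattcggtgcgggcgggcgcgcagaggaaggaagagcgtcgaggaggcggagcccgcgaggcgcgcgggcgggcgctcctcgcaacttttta
Ccn1 (chr3:145649986-145650235, minus strand): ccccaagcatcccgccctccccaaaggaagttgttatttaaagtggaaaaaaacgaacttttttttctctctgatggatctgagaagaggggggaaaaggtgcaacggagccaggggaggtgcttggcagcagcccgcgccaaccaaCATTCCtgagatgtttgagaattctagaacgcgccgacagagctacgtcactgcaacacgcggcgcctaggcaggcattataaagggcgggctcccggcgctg
Amot (chrX:145487640-145487889, minus strand): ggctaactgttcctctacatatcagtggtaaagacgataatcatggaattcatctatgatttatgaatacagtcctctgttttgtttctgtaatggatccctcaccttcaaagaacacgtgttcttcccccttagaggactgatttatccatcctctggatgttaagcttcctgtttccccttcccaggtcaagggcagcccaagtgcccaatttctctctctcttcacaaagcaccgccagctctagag

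The match began 65 bases before the start in Amotl2, 103 bases before it in Ccn1 and 141 bases before it in Yap1. In the Wwtr1 entries it began 136 and 170 bases before the start. G and C made up 76.4% of the Yap1 window and 70.4% of that of Amotl2, but 54.8% of that of Ccn1 and 44.8% of that of Amot. Other motifs were searched on both strands too. The AP-1 letters TGANTCA were in none of the 10 entries and in 6.75% of all promoters. The letters GGCGCC, a GC-rich motif bound by SMAD proteins, were in Ccn1 and 1 Lats2 entry and in 9.59% of all promoters. These matches describe the letters only, and no binding was measured.

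Among the angiomotins, Amot was the one called. Amot lies on chromosome X (GRCm38, positions 145446425 to 145505181, minus strand) and encodes the founding angiomotin. Its levels were 94.8, 91.0, 119 and 102 CPM in BMPR2 DELX 1 to 4 and 220, 225, 235 and 186 CPM in ROSA 1 to 4. Every mutant library was below every control library, and the highest mutant value stood well under the lowest control. The mean fell by 53.0%, from 216 ± 21.3 to 102 ± 12.3 CPM (SD, n = 4 each), a log2 fold change of -1.09 with a standard error (SE) of 0.10. In bulk RNA, fewer cells that express a gene and less of its RNA per cell cannot be told apart. With each library left out in turn the log2 fold change ran from -1.17 to -1.04, and Amot was called each time. It was -1.11 with an endothelial score, the mean log2 CPM of the endothelial markers, as a covariate and -1.03 without the ROSA 1 and ROSA 2 libraries, and was called in both.

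Amotl1 and Amotl2, its paralogs on chromosome 9, were not called. Amotl1 was at 321, 368, 346 and 368 CPM in BMPR2 DELX, against 328, 308, 338 and 335 CPM in ROSA. The groups overlapped, and the log2 fold change was 0.10 (SE 0.07). Amotl2 was at 537, 635, 642 and 654 CPM in BMPR2 DELX, against 702, 665, 628 and 662 CPM in ROSA, with BMPR2 DELX 1 the lowest of all 8. These groups overlapped too, with a log2 fold change of -0.11 (SE 0.08).

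Scaled by the merged length of all annotated exons, Amot was the least abundant angiomotin in both groups. The lengths of the transcripts expressed were not measured, so comparisons between genes per kb are approximate. The 3 genes summed to 164 ± 4.51 CPM per kb in ROSA and 145 ± 11.1 in BMPR2 DELX. Amot made up 15.7 ± 1.53% of that sum in ROSA and 8.35 ± 0.92% in BMPR2 DELX, without overlap between libraries. Amotl2 made up 64.4% in ROSA and 67.6% in BMPR2 DELX, and Amotl1 made up 19.9% and 24.1%. On the log2 scale the ratio of Amot to Amotl1 went from -0.60 ± 0.17 to -1.79 ± 0.20. The composition of the pool therefore shifted away from Amot, while Amotl2 remained the most abundant member in both groups.

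**Figure D1:**
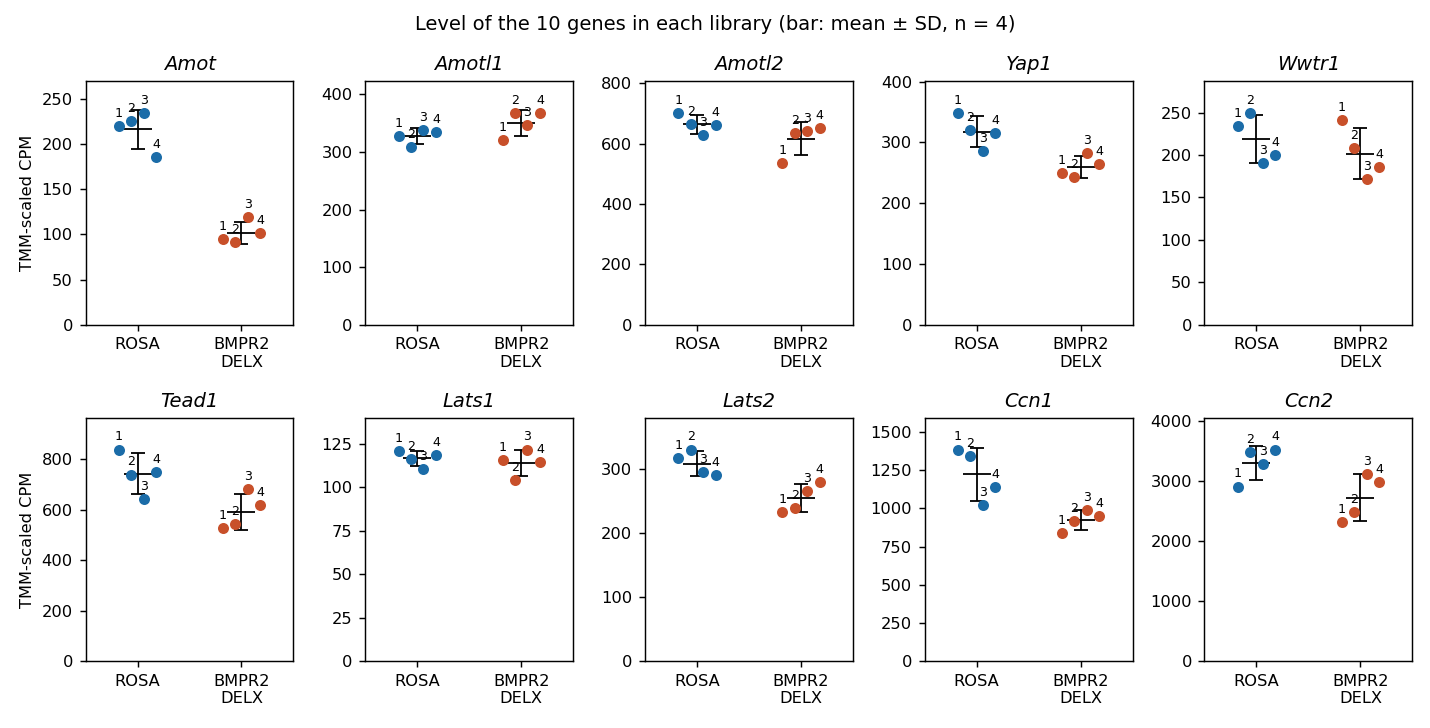
Levels of the 10 genes in each library, in TMM-scaled CPM on axes that start at 0, with a panel for each gene. Points are libraries with their replicate number (blue ROSA, orange BMPR2 DELX), and black bars give the mean with its SD (n = 4 per group). Amot, Yap1, Lats2 and Ccn1 show no overlap between groups, with Amot at 102 ± 12.3 against 216 ± 21.3 CPM.

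**Figure D2:**
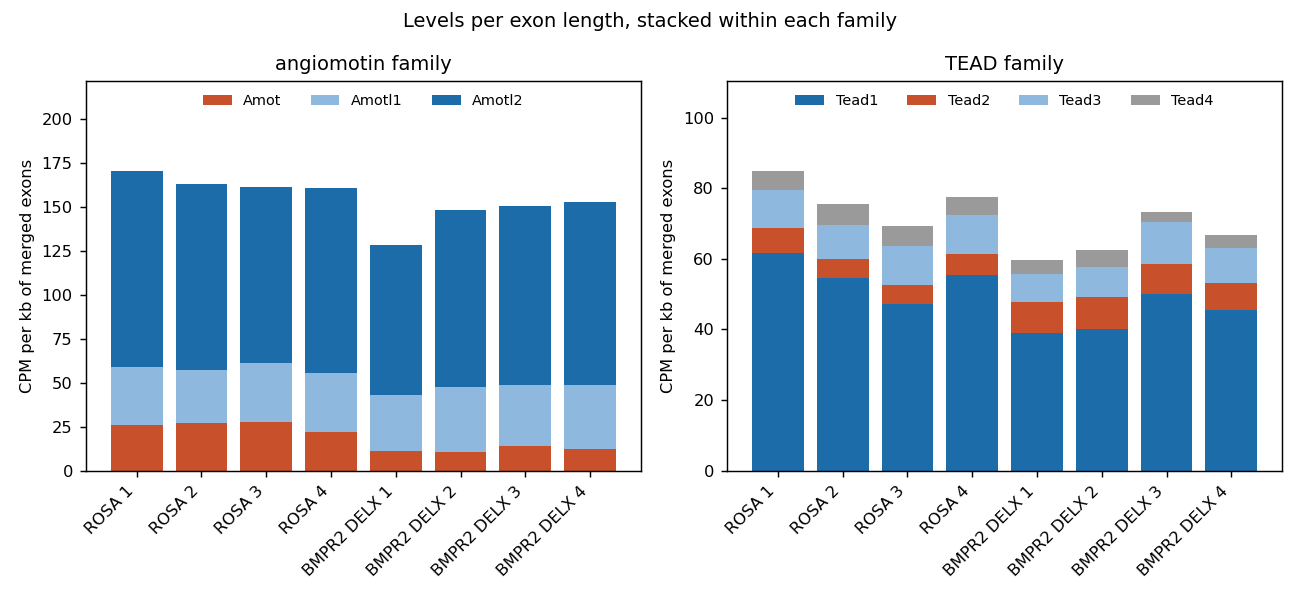
Stacked levels of the angiomotin genes (left) and TEAD genes (right) in each library, in CPM per kb of merged exons on axes that start at 0, with 1 bar per library and 1 colour per gene. Amot took 8.35% of the angiomotin sum in BMPR2 DELX against 15.7% in ROSA, and Tead2 took 13.1% of the TEAD sum against 7.81%.

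In all, 4 of the 10 genes were called lower in BMPR2 DELX (Amot, Yap1, Lats2 and Ccn1), where 5.15% of all tested genes were called lower and 9.10% in either direction. None was called higher in edgeR, where 3.96% of all genes were, and none was higher at an unadjusted p under 0.05 or in DESeq2. Since the genes were listed with this comparison known, nothing is read from that count. The median log2 fold change of the 10 was -0.28, with 9 of 10 below 0, beside 0.0045 over all genes. Groups did not overlap for the same 4 genes, as for 9.65% of all genes in that direction and 8.32% in the other.

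The LATS kinases phosphorylate YAP and TAZ. Lats2 was at 234, 239, 265 and 280 CPM in BMPR2 DELX, against 318, 331, 296 and 290 CPM in ROSA. All mutant libraries lay below all controls, with BMPR2 DELX 4 and ROSA 4 nearest to each other. The log2 fold change was -0.28 (SE 0.08), and the call held in 1 of 8 fits that each left out a library, the one without BMPR2 DELX 4. Over those fits the value ran from -0.33 to -0.23. With all 8 libraries the call was also lost under RLE or upper-quartile scaling, the unstranded column and a replicate block. In all, 13 of 19 alternative fits lost it, so the call sits at the threshold. Lats1 was at 116, 104, 122 and 114 CPM in BMPR2 DELX, against 121, 116, 111 and 119 CPM in ROSA. Its groups overlapped, with a log2 fold change of -0.03 (SE 0.06). Per kb of exon, Lats2 supplied 73.5 ± 1.19% of the LATS sum in ROSA and 70.0 ± 1.72% in BMPR2 DELX. The shares did not overlap, though BMPR2 DELX 4 at 71.926% and ROSA 4 at 71.929% were nearly equal.

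Of 34 tested Hippo kinases and regulators, 8 were called lower, 1 was called higher and 25 did not pass, where 5.15% of all tested genes were called lower and 3.96% higher. The list includes Lats1 and Lats2, and Lats2 is among its lower calls. The list's median log2 fold change was -0.08, with 21 of 34 below 0. This list and the lists below were also chosen with earlier results of these data known. Most genes named from them are those with the smallest p. Their adjusted p-values therefore describe selected genes and are not fresh tests. Rassf1, a scaffold that binds the upstream kinases, was at 82.0, 84.0, 88.1 and 77.9 CPM in BMPR2 DELX, against 114, 120, 104 and 117 CPM in ROSA. It fell by 0.46 on the log2 scale (SE 0.07, adjusted p = 0.0048, edgeR), with no overlap, and kept its call without each library in turn. Stk4, the upstream kinase MST1, fell by 0.29 (SE 0.06, adjusted p = 0.017, edgeR), from 91.6 ± 3.70 to 75.0 ± 2.99 CPM, and of the fits without 1 library lost its call in the one without ROSA 2, at an adjusted p of 0.058. Its paralog Stk3 was at 41.0 CPM in ROSA and 39.7 CPM in BMPR2 DELX, a log2 fold change of -0.04 (SE 0.11).

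Rassf5, a relative of Rassf1, fell by 0.37 (SE 0.08), Wwc2, a KIBRA-family scaffold, fell by 0.31 (SE 0.07), and Strn3, a subunit of the STRIPAK phosphatase complex that opposes Stk3 and Stk4, fell by 0.32 (SE 0.07). Their adjusted p-values in edgeR were 0.019, 0.020 and 0.020, and all 3 lost their calls without ROSA 1 and without ROSA 2, with adjusted p up to 0.074. The list thus holds both activators and an opponent of the cascade among the genes that fell. The remaining calls, Ajuba, Csnk1e and Map4k2, and the uncalled Fat4 are named after their values were seen. Ajuba, a LIM protein that restrains LATS kinases, fell from 92.5 ± 7.05 to 67.8 ± 10.5 CPM (-0.45, SE 0.11). Csnk1e, casein kinase 1 epsilon, fell by 0.35 (SE 0.08). Map4k2, a kinase that acts beside Stk3 and Stk4, was called higher, at 10.2 to 16.3 CPM in BMPR2 DELX, against 7.62 to 10.1 CPM in ROSA (0.58, SE 0.16). Of the 8 fits without 1 library, Ajuba kept its call in 3 (without BMPR2 DELX 2, ROSA 3 or ROSA 4), Csnk1e in 2 (without ROSA 3 or ROSA 4) and Map4k2 in 1 (without BMPR2 DELX 3). Fat4, a protocadherin, had a log2 fold change of -0.78 (SE 0.22, adjusted p = 0.063, edgeR) and ran from 143 to 268 CPM in BMPR2 DELX, against from 272 to 460 CPM in ROSA, where ROSA 1 and ROSA 2 were highest.

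The list had fewer calls without any single library, as did the table of all genes. Without ROSA 2 it had 1 call (Rassf1) beside 477 over all genes, without ROSA 1 it had 2 (Rassf1 and Stk4) beside 631, without BMPR2 DELX 1 it had 5, and in the other 5 fits it had 6 or 7. Without both ROSA 1 and ROSA 2 it had none in edgeR, with 10 of 34 at an unadjusted p under 0.05, while 1.11% of all tested genes were called (0.699% lower and 0.415% higher) and 1 of the 10 genes first described, Amot. Without BMPR2 DELX 3 and ROSA 3, the libraries lowest in endothelial markers, it had 1 call (Rassf1), and 4.22% of all genes were called (2.73% lower and 1.48% higher), with Amot, Ccn1, Tead1 and Yap1 among them. Without ROSA 1 and ROSA 2, the libraries with the highest immediate early sums, the log2 fold changes were -0.40 for Rassf1, -0.29 for Stk4, -0.23 for Wwc2 and -0.19 for Csnk1e.

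**Figure D3:**
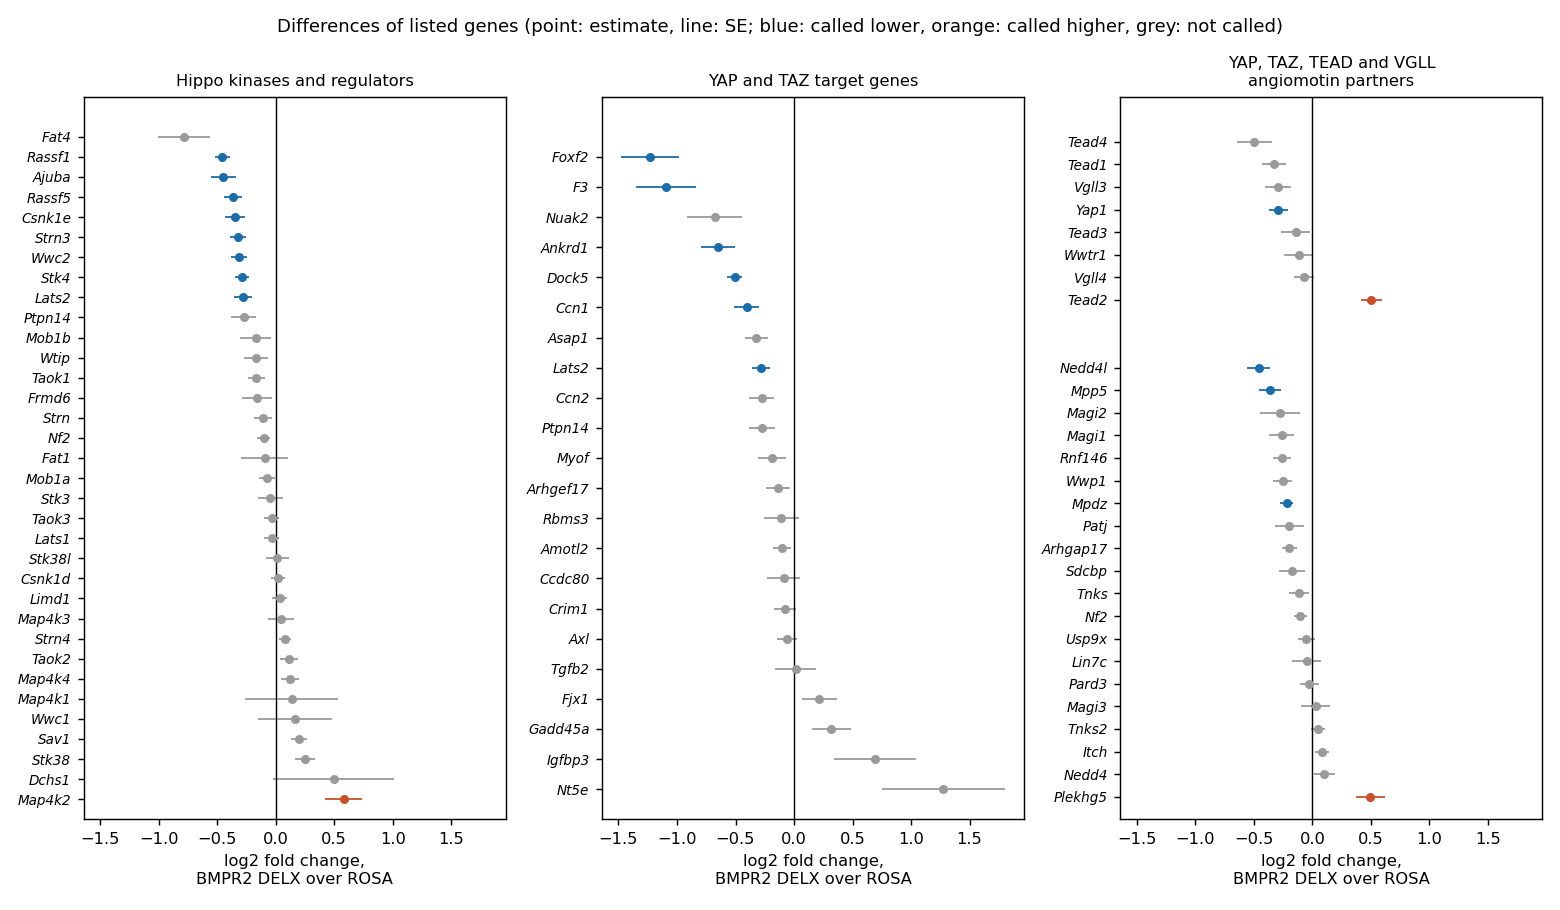
Log2 fold change of each tested gene of 4 lists, BMPR2 DELX over ROSA, with points for the estimate and lines for its SE. Blue genes were called lower, orange genes higher and grey genes were not called. Calls on the lower side number 8 of 9 among Hippo kinases and regulators, 6 of 6 among YAP and TAZ targets, 3 of 4 among angiomotin partners and 1 of 2 in the YAP, TAZ, TEAD and VGLL list, beside 766 of 1355 over all genes (606 of 1340 with upper-quartile scaling). Lats2 is counted among the calls of both the Hippo list and the target list.

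Yap1, which encodes YAP, was at 249, 242, 283 and 264 CPM in BMPR2 DELX, against 349, 321, 285 and 315 CPM in ROSA. No values overlapped, though BMPR2 DELX 3 at 283 and ROSA 3 at 285 CPM were nearly equal. The mean went from 317 ± 25.9 to 260 ± 17.96 CPM (SD, n = 4 each), a log2 fold change of -0.29 (SE 0.08). The call held without BMPR2 DELX 3 and without ROSA 3 and was lost without each of the other 6 libraries, with values from -0.34 to -0.23. Without both ROSA 1 and ROSA 2 it was -0.19.

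Wwtr1, which encodes TAZ, was at 242, 208, 172 and 186 CPM in BMPR2 DELX, against 235, 250, 191 and 201 CPM in ROSA. The groups overlapped, and libraries 3 and 4 were the lowest in each. The log2 fold change was -0.12 (SE 0.12), and it was 0.06 without ROSA 1 and ROSA 2. Per kb of exon, Yap1 and Wwtr1 summed to 80.1 CPM in ROSA and 70.3 CPM in BMPR2 DELX, with Yap1 at 42.9% and 40.1% of the sum.

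Tead1, the most abundant TEAD gene here, was at 528, 543, 680 and 617 CPM in BMPR2 DELX, against 838, 739, 641 and 751 CPM in ROSA. BMPR2 DELX 3 was above ROSA 3, so the groups overlapped, and the log2 fold change was -0.33 (SE 0.10), not called. Without both of those libraries it was -0.46 and called. They were also the libraries with the lowest endothelial sums, and with the endothelial score (mean log2 CPM) as a covariate Tead1 was at -0.34 and not called.

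Tead2 was the one gene of this family called higher. It was at 42.4, 43.6, 40.0 and 36.9 CPM in BMPR2 DELX, against 33.3, 26.8, 26.04 and 28.9 CPM in ROSA. All 4 mutant libraries were above all 4 controls. The mean rose from 28.7 ± 3.26 to 40.7 ± 2.96 CPM (SD, n = 4 each), a log2 fold change of 0.50 (SE 0.09, adjusted p = 0.012, edgeR), and the call held without each library in turn (0.46 to 0.59). Per kb of exon, Tead2 supplied 7.81 ± 0.32% of the TEAD sum in ROSA and 13.1 ± 1.86% in BMPR2 DELX, without overlap, while Tead1 supplied 71.2% and 66.4%. The TEAD sum was 76.7 ± 6.47 CPM per kb in ROSA and 65.6 ± 5.88 in BMPR2 DELX.

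Tead4 ran from 10.1 to 17.9 CPM in BMPR2 DELX, against from 18.2 to 21.6 CPM in ROSA. It was not called, with a log2 fold change of -0.50 (SE 0.15, adjusted p = 0.066, edgeR). It was called lower with DESeq2 (adjusted p = 0.020) and, in edgeR, with the endothelial covariate (0.018). Tead3 was at 64.1 CPM in BMPR2 DELX, against 70.8 CPM in ROSA (-0.14, SE 0.12). The VGLL proteins compete with YAP and TAZ for TEAD. Vgll3 was at 288 CPM in BMPR2 DELX, against 353 CPM in ROSA (-0.29, SE 0.11), and Vgll4 at 30.7 and 32.3 CPM (-0.07, SE 0.09), neither called. Among the 8 tested genes of the YAP, TAZ, TEAD and VGLL list, 1 was called higher (Tead2), 1 lower (Yap1) and 6 did not pass, with a median of -0.22, beside 3.96% of all tested genes higher and 5.15% lower.

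Ccn1 and Ccn2 encode secreted matricellular proteins and are the standard readouts of YAP and TAZ activity. Ccn1 was at 837, 915, 991 and 947 CPM in BMPR2 DELX, against 1384, 1344, 1021 and 1139 CPM in ROSA. The groups did not overlap, ROSA 3 lay just above BMPR2 DELX 3, and ROSA 1 and ROSA 2 were the highest. The mean went from 1222 ± 172 to 923 ± 64.8 CPM (SD, n = 4 each), a log2 fold change of -0.41 (SE 0.10). The call held without ROSA 3 and without ROSA 4 and was lost without each of the other 6, with values from -0.48 to -0.33. Without both ROSA 1 and ROSA 2 the value was -0.21. Ccn1 is itself an early responding gene, and those libraries held the most immediate early RNA. The part of that in the difference was not tested.

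Ccn2 was at 2316, 2486, 3118 and 2986 CPM in BMPR2 DELX, against 2911, 3485, 3293 and 3527 CPM in ROSA. BMPR2 DELX 3 and 4 lay above ROSA 1, so the groups overlapped. The log2 fold change was -0.28 (SE 0.11), not called. It was -0.31 without ROSA 1 and ROSA 2, also not called. The antisense gene Gm15270 overlaps Ccn2, with a mean of 1958 counts per library, and the counts used here are stranded.

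Of 22 tested YAP and TAZ target genes, 6 were called lower and 16 did not pass, beside 5.15% of all tested genes called lower. None was called higher in edgeR or DESeq2 over all 8 libraries, and 1, Nt5e, was higher at an unadjusted p under 0.05. Without BMPR2 DELX 4 edgeR called Nt5e higher, at an adjusted p of 0.048. The list holds Ccn1, Ccn2, Lats2 and Amotl2. Of the 18 other genes, 4 were called lower (Dock5, Foxf2, Ankrd1 and F3), and their median log2 fold change was -0.12.

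Dock5, an exchange factor for the GTPase Rac, was at 134, 152, 144 and 148 CPM in BMPR2 DELX, against 216, 195, 212 and 199 CPM in ROSA. The groups were far apart for their spread. It fell by 0.51 on the log2 scale (SE 0.06, adjusted p = 0.0033, edgeR) and kept its call without each library and without ROSA 1 and ROSA 2 together. Foxf2, a forkhead factor of mesenchymal cells, was at 5.30, 4.76, 7.16 and 9.94 CPM in BMPR2 DELX, against 20.04, 17.0, 15.5 and 11.4 CPM in ROSA. It fell by 1.23 (SE 0.25, adjusted p = 0.020, edgeR). Its call was lost without BMPR2 DELX 1, ROSA 1 or ROSA 2, with adjusted p up to 0.063.

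Ankrd1, a muscle ankyrin repeat protein induced by stretch, was at 630, 645, 797 and 789 CPM in BMPR2 DELX, against 890, 976, 1221 and 1397 CPM in ROSA. In both groups libraries 3 and 4 were the highest, and all controls were above all mutants. It fell by 0.65 (SE 0.15, adjusted p = 0.028, edgeR). The call was lost without BMPR2 DELX 1, BMPR2 DELX 2, ROSA 2 or ROSA 3, with adjusted p up to 0.076, but held without ROSA 1 and ROSA 2 together (-0.86).

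F3, tissue factor, was at 356, 323, 537 and 446 CPM in BMPR2 DELX, against 1166, 1066, 556 and 757 CPM in ROSA. ROSA 1 and ROSA 2 were the highest, and ROSA 3 lay just above BMPR2 DELX 3. It fell by 1.09 (SE 0.25, adjusted p = 0.035, edgeR). Its call was lost without BMPR2 DELX 1, 2 or 4 or ROSA 1 or 2, and without ROSA 1 and ROSA 2 together the value was -0.65 (adjusted p = 0.21, edgeR). Asap1, an Arf GTPase-activating protein, had -0.32 (SE 0.10, adjusted p = 0.074, edgeR).

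Among the targets that did not pass, Nuak2, Nt5e and Igfbp3 are named after their values were seen. Nuak2, a kinase, was at 45.001 to 61.3 CPM in BMPR2 DELX, at 98.3 and 122 CPM in ROSA 1 and ROSA 2, and at 65.2 and 57.6 CPM in ROSA 3 and ROSA 4 (-0.68, SE 0.23). Nt5e, the surface enzyme CD73, was at 5.53, 9.78, 16.2 and 2.55 CPM in BMPR2 DELX, against 2.29 to 4.88 CPM in ROSA, so the mutant libraries spread over a wide range (1.28, SE 0.53). Igfbp3, an IGF binding protein, was at 11.6 to 23.2 CPM in BMPR2 DELX, against 4.69 to 14.2 CPM in ROSA (0.69, SE 0.35). The target list thus held genes on both sides of 0, with 17 of 22 below it, and its calls numbered 1 (Dock5) without BMPR2 DELX 1 or without ROSA 2, 2 without BMPR2 DELX 2 or without ROSA 1, 6 without ROSA 4, and 6 without BMPR2 DELX 4, of which 1 (Nt5e) was higher.

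**Figure D4:**
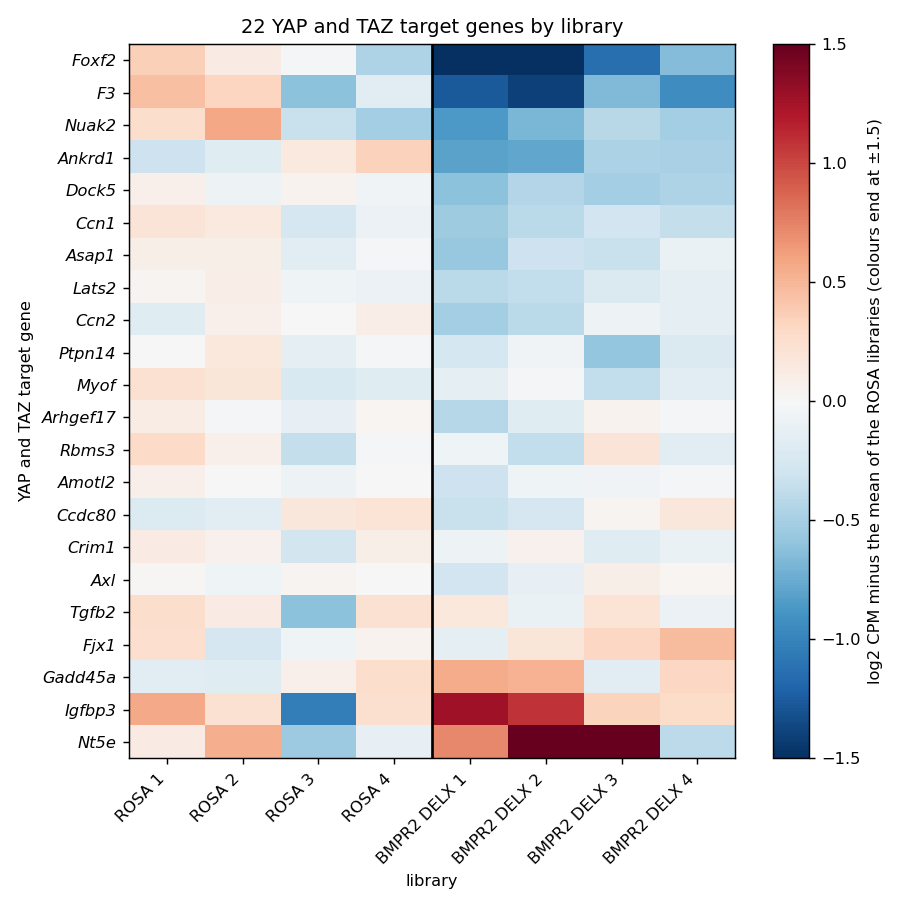
Level of 22 YAP and TAZ target genes (rows) in each library (columns), as log2 CPM minus the mean of the ROSA libraries, with red above and blue below that mean and genes ordered by log2 fold change. ROSA 1 and ROSA 2 are the highest libraries for Ccn1, F3 and Nuak2, and ROSA 3 and ROSA 4 for Ankrd1.

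Among 20 tested angiomotin partners, 3 were called lower, 1 was called higher and 16 did not pass, with a median of -0.14. Over all tested genes 5.15% were called lower and 3.96% higher. Nedd4l, a ubiquitin ligase of the family that marks angiomotins for turnover, was at 92.0, 98.1, 119 and 125 CPM in BMPR2 DELX, against 154, 150, 141 and 151 CPM in ROSA. The groups did not overlap, and it fell by 0.46 (SE 0.10, adjusted p = 0.021, edgeR). Its call was lost without BMPR2 DELX 2, ROSA 1 or ROSA 2. Mpdz, a PDZ scaffold, fell by 0.22 (SE 0.06, adjusted p = 0.042, edgeR), from 164 ± 8.88 to 141 ± 1.08 CPM, but lost its call without any 1 of the 8 libraries, with adjusted p up to 0.12. Mpp5, the polarity protein PALS1, fell by 0.36 (SE 0.09, adjusted p = 0.044, edgeR), from 71.8 ± 7.52 to 56.0 ± 5.74 CPM, and kept its call without BMPR2 DELX 1 and without ROSA 4 but in no other such fit.

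Plekhg5, an exchange factor for small GTPases that angiomotin binds in endothelial cells, rose by 0.49 (SE 0.13, adjusted p = 0.039, edgeR), from 10.8 ± 1.71 to 15.2 ± 1.56 CPM, and kept its call without BMPR2 DELX 4 and without ROSA 4 but in no other such fit. Rnf146, a ubiquitin ligase that acts with tankyrase on angiomotins, was at 33.5 CPM in ROSA and 28.005 CPM in BMPR2 DELX (-0.26, SE 0.07, adjusted p = 0.056, edgeR). The partner list had no call in edgeR without BMPR2 DELX 2, without ROSA 1 or without ROSA 2, with 7 of 20 at an unadjusted p under 0.05 in each, and 1 (Nedd4l) without BMPR2 DELX 3. It had 2 calls without BMPR2 DELX 1 (Mpp5 and Nedd4l) and 2 without BMPR2 DELX 4 (Nedd4l and Plekhg5).

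Between genes, levels per kb of merged exons were highest for the secreted targets. In ROSA the order was Ccn2 at 1155 ± 98.2 CPM per kb, Ccn1 at 605 ± 85.0, Amotl2 at 106 ± 4.84, Tead1 at 54.7 ± 5.95, Wwtr1 at 45.8 ± 5.82, Lats2 at 44.3 ± 2.70, Yap1 at 34.3 ± 2.80, Amotl1 at 32.5 ± 1.33, Amot at 25.7 ± 2.54 and Lats1 at 15.985 ± 0.59 (SD, n = 4). Of the neighbours in this order, Tead1 and Wwtr1, Wwtr1 and Lats2, and Yap1 and Amotl1 overlapped between libraries. In BMPR2 DELX, Amot at 12.1 CPM per kb stood below Lats1 at 15.6, and Amotl1 at 34.8 stood above Yap1 at 28.05. The order was otherwise the same.

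The genes whose pattern over the 8 libraries was most like a given gene were found by the mean absolute difference in centred log2 CPM, among 11697 genes. For Amot they were Slc6a12, a betaine and GABA transporter, at 0.0841, Rnf128, a ubiquitin ligase, at 0.0944, Vegfc, a lymphatic growth factor, at 0.0980 and Fgd3, an exchange factor for Cdc42, at 0.106. All 4 were at about the same ratio as Amot, with log2 fold changes from -1.13 for Vegfc to -0.97 for Rnf128. A choice by this distance largely fixes that ratio, so it is not a separate result. Vegfc, for example, was at 16.4, 13.7, 21.0 and 18.2 CPM in BMPR2 DELX, against 43.0, 34.0, 42.8 and 31.5 CPM in ROSA. For Ccn1 they were Lrrfip1 at 0.0460, Zswim8 at 0.0473, Ttpal at 0.0553 and Bcar1, the adhesion scaffold p130Cas, at 0.0578. For Ccn2 they included Adamts14 at 0.0570, Nuak1 at 0.0608 and Thbs1, thrombospondin 1, at 0.0633. A distance of this kind is a description over 8 libraries.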

How the data were processed

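Polyadenylated RNA of 8 libraries was read from gene count tables, 1 per sample. Per the submitters' processing notes, the authors used GRCm38, STAR 2.5.2b and HTSeq, with roles and order not given. The deposited values are raw read counts per Ensembl gene in STAR's layout. The column for the opposite strand was used, and lines without a gene (14.7 to 22.0% of reads) were left out. Symbols came from a GENCODE annotation of GRCm38, which held 49412 of 49671 identifiers.

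BMPR2 DELX was compared with ROSA (4 each) in edgeR 4.0.16 (robust quasi-likelihood test, TMM factors, filterByExpr, R 4.3.3), with Benjamini-Hochberg adjustment over all tested genes. The SE was the log2 fold change divided by the square root of F. The script was checked on simulated counts. A count of 3 corresponds to 0.0687 to 0.104 CPM, which covers counting error only.

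The 10 genes and all lists were chosen with earlier results of these data known. Named beside them were up to 5 genes per list by smallest p, TEAD and STK paralogs, Bmpr2 and the 4 nearest genes to Amot, Ccn1 and Ccn2, except where stated. One gene that the rule names is not reported here. Alternatives were RLE and upper-quartile factors, DESeq2 1.42.0, voom with sample weights (limma 3.58.1), other count filters, the unstranded column, a replicate block, an endothelial covariate, and leaving out libraries.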

Additional observations from a re-analysis of the deposited data

Results flagged for a closer look

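In groups of 4, a highest or lowest library was singled out where its gap to the nearest other library exceeded, as a share of the group's range, Dixon's critical value. Of 102 groups of named genes, 3 had such a library, and chance gives about 1 in 20. Amotl2 was lowest in BMPR2 DELX 1, at 537 CPM against 635 to 654 CPM in the other mutant libraries. Tead3 was lowest in ROSA 2, at 62.8 CPM against 72.3 to 74.1 CPM in the other controls. Rnf128, one of the genes most like Amot, was highest in BMPR2 DELX 3, at 43.9 CPM against 30.2 to 32.1 CPM.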

How the results depend on the processing

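Amot, Tead2, Dock5, Slc6a12, Vegfc and Fgd3 were called in the same direction under all 19 alternatives, and every other named gene that was called lost its call in at least 1. Slc6a12, Vegfc and Fgd3 had been picked for their likeness to Amot over these same libraries. Amot, Tead2 and Dock5 came from lists chosen with earlier results of these data known. All alternatives refit these same libraries or part of them, so a call that holds is not separate support. Over all genes there were 1355 calls, 2284 with DESeq2, 172 without both ROSA 1 and ROSA 2, 631 without BMPR2 DELX 3 and ROSA 3, and 477 to 1266 without single libraries. Of the 10 genes, 4 were called, 2 with upper-quartile factors, 1 without ROSA 1 and ROSA 2, and 1 to 3 without single libraries. Hippo kinases and regulators went from 9 calls to 0 without ROSA 1 and ROSA 2 (10 at an unadjusted p under 0.05 in edgeR), to 1 without BMPR2 DELX 3 and ROSA 3, and to 1 to 7 without single libraries. The YAP, TAZ, TEAD and VGLL list went from 2 calls to 1 with upper-quartile factors, 4 with DESeq2, 4 with the endothelial covariate, 1 without ROSA 1 and ROSA 2, and 1 to 3 without single libraries. Angiomotin partners went from 4 to 2 with upper-quartile factors, 7 with DESeq2, 2 with the unstranded column, 0 without ROSA 1 and ROSA 2 (3 unadjusted, edgeR), 2 without BMPR2 DELX 3 and ROSA 3, and 0 to 3 without single libraries. Targets went from 6 to 2 without ROSA 1 and ROSA 2, 3 without BMPR2 DELX 3 and ROSA 3, and 1 to 6 without single libraries. Fits on fewer libraries have less power, but the estimates moved too. Without ROSA 1 and ROSA 2 the median log2 fold change went from -0.083 to -0.0066 for Hippo kinases and regulators. For partners it went from -0.143 to -0.037. Without BMPR2 DELX 3 and ROSA 3 these medians were -0.117 and -0.163. The cause of these shifts was not tested. Signs turned for Wwtr1 (0.0592) and Vgll4 (0.0716) without ROSA 1 and ROSA 2, for Lats1 with upper-quartile factors (0.0052), without ROSA 1 and ROSA 2 (0.0054) and without BMPR2 DELX 2 (0.0078), and for Stk3 without BMPR2 DELX 4 (0.0151), none of them called. Without single libraries Lats1 ran from -0.0661 to 0.0078 and Stk3 from -0.1566 to 0.0151.

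With the replicate number as a block there were 1245 calls, with 1 among the 10 genes (Amot), 8 among Hippo kinases and regulators, 2 in the YAP, TAZ, TEAD and VGLL list (Tead2 and Tead4, in place of Yap1), 2 among partners and 2 among targets. Same-numbered libraries had correlations of deviations of 0.005, 0.21, 0.24 and 0.094, and BMPR2 DELX 1 and BMPR2 DELX 4 correlated best with another number, so the numbers were not taken to pair the libraries.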

Other observations

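Reads on the strand opposite to the counted one were few at these genes, from 0.92 to 4.62% of the counted reads per gene and library. At Amot they were 37, 64, 62 and 73 reads in BMPR2 DELX 1 to 4 and 113, 138, 120 and 117 in ROSA 1 to 4, or 1.67 against 3.45 CPM on average. In these reads too, all 4 mutant libraries were below all controls. At Amot they were 1.28 to 1.98% of the counted reads. Whether they stem from the same transcript was not tested, so they are not taken as separate support. Of 9 genes that overlap the 10 in the annotation, 2 lie on the same strand, and neither had a mean above 0.25 counts.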
